A study of Mus musculus with 73 samples.

Results

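Keratins build the intermediate filaments of epithelial cells, and 10 of them are described here: Krt5, Krt6a, Krt6b, Krt7, Krt8, Krt14, Krt15, Krt17, Krt18 and Krt19. They were chosen by symbol, and all 10 were found among the 39438 gene symbols of the count table. The series holds 73 mammary tumours of mice, each sequenced as 1 library of polyadenylated RNA. The L1363P tumours, whose genotype label is KB1(L1363P)P and which carry the Brca1 variant p.L1363P, were 9 sarcomatoid tumours, 9 carcinosarcomas and 3 adenocarcinomas. The KP tumours were 3 carcinosarcomas and 5 adenocarcinomas. Of the 21 adenocarcinomas of genotype KB1P, 10 carry the title KB1PM and 11 the title KB1P, and 23 adenocarcinomas have the genotype KB2P. In the established KP, KB1P and KB2P mice a Cre recombinase under a Krt14 promoter deletes Trp53 alone, with Brca1 or with Brca2, so loss of p53 is common to these models. The form of the label KB1(L1363P)P is that of KB1P. The labels give neither ages nor the meaning of the M in KB1PM. Adenocarcinomas are labelled 100% epithelial and sarcomatoid tumours 0%, L1363P carcinosarcomas 2 to 98% and KP carcinosarcomas 80 to 90%. The sources used here do not say whether keratin stains entered these histology labels.

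A keratin filament is assembled from pairs of a type I and a type II keratin. Krt8 (type II) pairs with Krt18 (type I) in simple epithelia, and in the mammary gland this pair and the simple keratins Krt7 and Krt19 mark luminal cells. Krt5 (type II) pairs with Krt14 (type I) in basal epithelium, including mammary basal and myoepithelial cells, where Krt15 and Krt17 are basal type I keratins too. Krt6a and Krt6b are type II keratins that stressed or wounded skin induces, often together with Krt17. The Krt6a and Krt6b transcripts are near-identical, so reads may have been split between them by the counting, and their separate values are uncertain.

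Type II members lie in a cluster on chromosome 15 together with Krt18, and the other type I members lie on chromosome 11 (positions from GENCODE vM21 for GRCm38, the assembly behind mm10). Krt8 spans chr15:101996698-102004482 on the minus strand and Krt18 chr15:102028180-102032027 on the plus strand, so these partners start next to each other and are read away from each other. Krt5 spans chr15:101707070-101712898 and Krt14 chr11:100203162-100207548, so the basal pair is on separate chromosomes. A RefSeq table of promoters (GRCm38.p6, 250 bases before to 50 after a gene's start) held 5 of the 10 members. Shown are Krt8 and Krt18, whose levels moved together, Krt5, which moved apart from them, and Krt7, the member that kept a high level in most sarcomatoid tumours. The windows of Krt14 and Krt7 lie wholly inside the GENCODE spans of these genes (Krt7 chr15:101411043-101430313), and only that of Krt14 is not shown. The RefSeq starts of Krt8 and Krt18 also lie inside their GENCODE spans. Distances below are to the RefSeq start, which need not be the first GENCODE base. Capitals mark matches to 4 motifs. The TATA box was searched with the letters TATAAA and the GC box with the letters GGGCGG. An E-box was searched with the letters CACCTG and the AP-1 motif with the letters TGANTCA, all of them on either strand. Each line runs 5′ to 3′ on the gene's own strand.
Krt8, chr15:102004293-102004592, minus strand: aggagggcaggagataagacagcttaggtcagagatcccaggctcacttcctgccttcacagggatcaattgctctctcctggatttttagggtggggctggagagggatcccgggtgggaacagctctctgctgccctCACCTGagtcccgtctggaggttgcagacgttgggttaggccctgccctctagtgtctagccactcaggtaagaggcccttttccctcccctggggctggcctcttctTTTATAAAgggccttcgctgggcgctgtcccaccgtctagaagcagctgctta
Krt18, chr15:102027966-102028265, plus strand: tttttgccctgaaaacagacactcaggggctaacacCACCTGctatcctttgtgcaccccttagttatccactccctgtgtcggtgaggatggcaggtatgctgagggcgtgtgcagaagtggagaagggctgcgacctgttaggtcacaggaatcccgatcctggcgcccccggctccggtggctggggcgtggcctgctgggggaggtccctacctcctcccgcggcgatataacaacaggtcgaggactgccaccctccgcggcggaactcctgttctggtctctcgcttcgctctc
Krt5, chr15:101712856-101713155, minus strand: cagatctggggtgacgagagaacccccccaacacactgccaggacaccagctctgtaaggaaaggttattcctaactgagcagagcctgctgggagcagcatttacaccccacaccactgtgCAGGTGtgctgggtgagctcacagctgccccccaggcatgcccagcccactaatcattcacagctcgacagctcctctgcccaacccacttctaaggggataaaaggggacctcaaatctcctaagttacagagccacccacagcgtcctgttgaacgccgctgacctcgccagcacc
Krt7, chr15:101412153-101412452, plus strand: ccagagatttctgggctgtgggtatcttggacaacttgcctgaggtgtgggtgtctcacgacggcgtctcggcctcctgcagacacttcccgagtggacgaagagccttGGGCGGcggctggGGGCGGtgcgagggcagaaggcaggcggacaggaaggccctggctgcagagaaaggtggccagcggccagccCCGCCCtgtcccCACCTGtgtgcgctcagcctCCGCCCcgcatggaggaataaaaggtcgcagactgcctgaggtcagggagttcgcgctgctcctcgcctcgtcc
The 300 bases of Krt7 had the highest GC content of these windows (66.3%) and 4 GC boxes, 141, 128, 56 and 24 bases before the start, and 35.7% of the 32851 promoters in the table hold one. An E-box was found in all 4 windows, 111 bases before the start of Krt8, 214 before Krt18, 128 before Krt5 and 44 before Krt7, against 20.2% of all promoters. The TATA letters of Krt8 were found on both strands, overlapping each other and running across its start from first bases 3 and 1 before it (13.6% of all promoters hold the motif), and no window held the AP-1 letters (7.81% of all). A match is a description of the letters, not of a bound site.

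Levels are CPM, read counts put on a common library size across the 73 tumours and not adjusted for gene length. Plain CPM values of different genes that are listed together therefore do not rank those genes. The leading keratin, the percentage shares and the ratios between keratins below use CPM per kb of transcript. The balance of simple and basal keratins and the sums of marker genes use CPM without gene length. Total counts were 7325180 to 31615237 per tumour. Differences are log2 fold changes with standard errors (SE) from edgeR's quasi-likelihood test, called at a Benjamini-Hochberg adjusted p under 0.05 over all genes tested. The labels do not say that tumours came from separate animals, so p-values measure the spread between these samples, and tumours 54.1 and 54.2 share a number. In bulk RNA, fewer cells of a type and less RNA per cell cannot be told apart.

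Some tumours stood apart from their groups in Epcam, an epithelial adhesion gene. It was at 0.951 CPM in L1363P carcinosarcoma 17 and 1.67 CPM in carcinosarcoma 4, which are labelled only 5% and 2% epithelial. It was at 1.75 CPM in KP adenocarcinoma 90.01A, although that tumour is labelled 100% epithelial. It was at 4.81 CPM in KB2P tumour 30, against 192 to 1185 CPM in the other 22 KB2P tumours. KB1PM tumour 8 had 53.9 CPM, KB1P tumour 1 had 50.4 CPM and L1363P carcinosarcoma 6 (95%) had 101 CPM. Some comparisons are also given without some of these tumours. No comparison of groups was fitted without KB1P tumour 1.

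**Figure D1:**
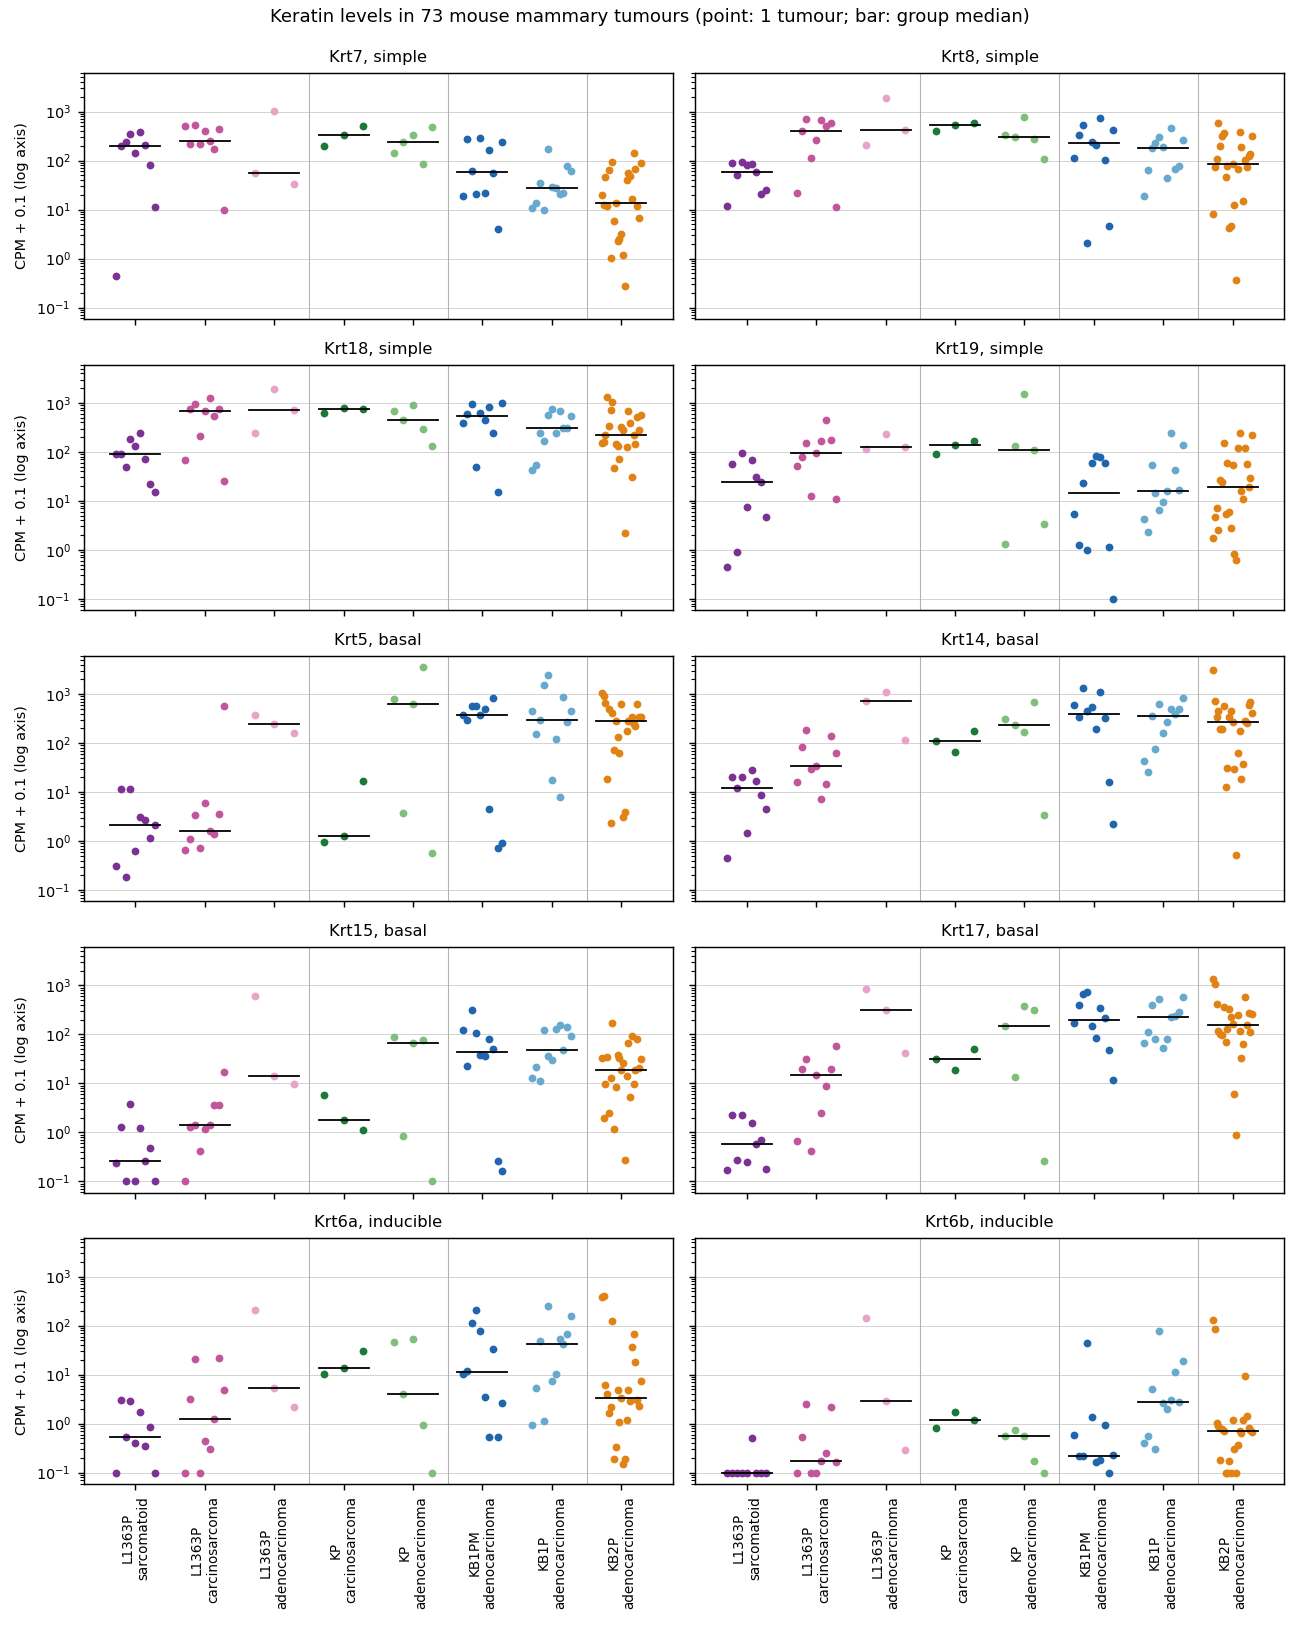
Level of each of the 10 keratins in every tumour (points, CPM + 0.1 on a log axis) in the 8 groups, with a bar at the group median. Krt17 is at most 2.21 CPM in the 9 sarcomatoid tumours and at least 42.5 CPM in the 3 L1363P adenocarcinomas, while Krt7 reaches 388 CPM in the sarcomatoid group.

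L1363P sarcomatoid tumours had far less keratin RNA than L1363P adenocarcinomas. Of the 10 members 8 fell and none rose, against 18.4% lower and 12.1% higher among the 16147 genes tested, and the median log2 fold change of the 10 was -6.04, against -0.09 over all genes. The basal and inducible keratins had the largest changes, the Krt8 and Krt18 pair smaller ones, and Krt7 and Krt19 did not pass the test. DESeq2 called the same number, 8, and limma on the deposited log2 values 7. The number was 6 without adenocarcinoma 26.2. It was 7 in a fit of only these groups, where Krt6b did not pass the filter on low counts.

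Krt17 was at 0.0697 to 2.21 CPM in the 9 sarcomatoid tumours (median 0.485, 93 counts in all), against 42.5, 311 and 856 CPM in the 3 adenocarcinomas. Every sarcomatoid tumour lay below every adenocarcinoma (log2 fold change -9.03, SE 1.28, edgeR quasi-likelihood adjusted p = 9.11e-05). Krt14 was at 0.349 to 28.8 CPM in sarcomatoid tumours (median 12.0), against 116, 742 and 1119 CPM in adenocarcinomas. The groups did not overlap (-5.81, SE 0.96, edgeR quasi-likelihood adjusted p = 0.000212). Its partner Krt5 was at 0.0892 to 11.4 CPM in sarcomatoid tumours (median 2.03), against 163, 241 and 376 CPM in adenocarcinomas. Again no sarcomatoid tumour reached an adenocarcinoma (-6.26, SE 1.77, edgeR quasi-likelihood adjusted p = 0.0102). Krt15 was at 0 to 3.69 CPM in sarcomatoid tumours, with no count in 3 of them, against 9.55, 13.7 and 614 CPM in adenocarcinomas. The groups were separate, but adenocarcinoma 26.2 was far above the other two, and the fold change of -8.24 (SE 1.46, edgeR quasi-likelihood adjusted p = 0.000351) was -4.03 without it and no longer called.

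The inducible pair was nearly absent from the sarcomatoid tumours. Krt6b had 5 counts in all over the 9 tumours, every one of them in tumour 40.1 (0.3999 CPM), against 0.185, 2.77 and 146 CPM in the adenocarcinomas. Tumour 40.1 lay above the lowest adenocarcinoma and the other 8 lay below all of them (-9.96, SE 1.5, edgeR quasi-likelihood adjusted p = 0.000127), a fitted value that depends on how so few counts are treated. Krt6a was at 0 to 2.89 CPM in sarcomatoid tumours (median 0.446), against 2.1, 5.21 and 209.5 CPM in adenocarcinomas. Of the 9 sarcomatoid tumours 7 were below all adenocarcinomas (-6.27, SE 1.5, edgeR quasi-likelihood adjusted p = 0.00353). Without adenocarcinoma 26.2 the Krt6a fold change was -1.94 and not called.

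Among the simple keratins the canonical pair fell. Krt8 was at 11.6 to 94.2 CPM in sarcomatoid tumours (median 59.8), against 208, 427 and 1857 CPM in adenocarcinomas. The groups did not overlap (-3.93, SE 0.76, edgeR quasi-likelihood adjusted p = 0.000682). Krt18 was at 15.2 to 245 CPM in sarcomatoid tumours (median 89.4), against 237, 727 and 1900 CPM in adenocarcinomas. Sarcomatoid tumour 40.1 was just above adenocarcinoma 26.2 and the other 8 were below all adenocarcinomas (-3.33, SE 0.74, edgeR quasi-likelihood adjusted p = 0.00206). Both remained detected in every sarcomatoid tumour.

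Krt7 and Krt19, the other simple keratins, did not pass the test. Krt7 was at 0.349 CPM in sarcomatoid tumour 10 and 388 CPM in tumour 40.1 (median 196), against 33.5, 56.6 and 1024 CPM in adenocarcinomas 7.2, 26.2 and 52. In 7 of the 9 sarcomatoid tumours Krt7 was higher than in 2 of the 3 adenocarcinomas (log2 fold change -1.14, SE 0.97, edgeR quasi-likelihood adjusted p = 0.385). The sign of this value rests on adenocarcinoma 52, and without it the fold change was 1.92. Krt19, the smallest type I keratin, was at 0.349 to 93.5 CPM in sarcomatoid tumours (median 24.1), against 112, 126 and 233 CPM in adenocarcinomas. All 9 were below all 3, yet the call was missed (-2.37, SE 1.21, edgeR quasi-likelihood adjusted p = 0.133).

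Other cell types moved with this comparison. The summed level of 10 epithelial markers was 6.97 to 181 CPM in sarcomatoid tumours, against 2037 to 4717 CPM in adenocarcinomas, and all 10 fell. The sum of 8 fibroblast markers was 12415 to 34605 CPM in sarcomatoid tumours, against 2850 to 4829 CPM in adenocarcinomas, and that of 6 macrophage markers was 3356 to 6808 CPM, against 453 to 837 CPM. Of the fibroblast markers 6 of 8 rose and of the macrophage markers 6 of 6, and their part in the keratin differences was not tested.

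**Figure D2:**
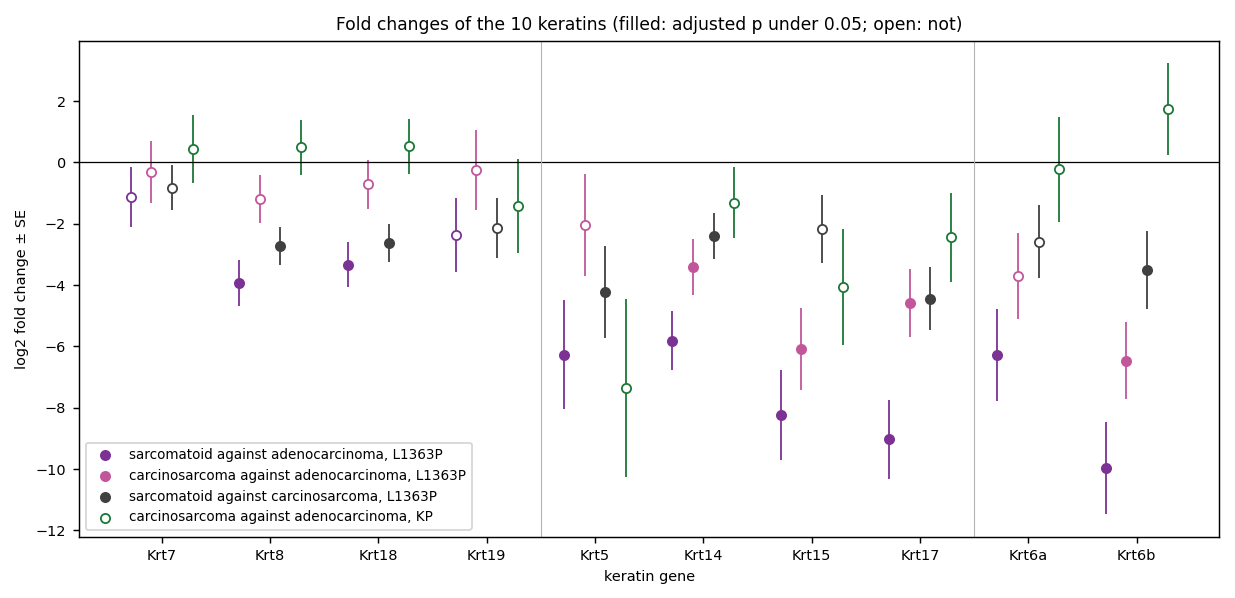
Log2 fold change ± SE of each keratin in the 3 comparisons of L1363P histologies and in KP carcinosarcomas against KP adenocarcinomas (filled points, called at adjusted p under 0.05). All 8 called members in sarcomatoid tumours against adenocarcinomas lie at or below -3.33, and no member is called in KP.

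In L1363P carcinosarcomas only keratins of the basal and inducible groups were called against adenocarcinomas. Of the 10 members 4 fell and none rose, against 2.14% lower and 0.539% higher among 16147 genes, with a median of -2.72 over the 10 and 0.01 over all genes. Krt17 was at 0.319 to 58.2 CPM in the 9 carcinosarcomas (median 14.9), against 42.5, 311 and 856 CPM in adenocarcinomas. Of the carcinosarcomas 8 were below all adenocarcinomas, the exception being tumour 6 (-4.58, SE 1.1, edgeR quasi-likelihood adjusted p = 0.0229). Krt14 was at 7.27 to 183 CPM in carcinosarcomas (median 34.8), against 116, 742 and 1119 CPM in adenocarcinomas. Tumours 21.1 and 54.2 overlapped the lowest adenocarcinoma (-3.41, SE 0.91, edgeR quasi-likelihood adjusted p = 0.0407). Krt15 was at 0 to 16.8 CPM in carcinosarcomas (median 1.31), against 9.55, 13.7 and 614 CPM in adenocarcinomas. Only tumour 6 reached the adenocarcinoma range (-6.07, SE 1.34, edgeR quasi-likelihood adjusted p = 0.0144). Krt6b was at 0 to 2.39 CPM in carcinosarcomas (median 0.0699) with 3 tumours at 0, against 0.185, 2.77 and 146 CPM in adenocarcinomas, and 6 of the 9 were below all adenocarcinomas (-6.46, SE 1.27, edgeR quasi-likelihood adjusted p = 0.00683). All 4 calls were lost without adenocarcinoma 26.2, in a fit of only the compared groups and in limma, whereas DESeq2 called 4.

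Krt7, Krt8 and Krt18 of carcinosarcomas lay in the range of the adenocarcinomas in most tumours, and Krt19 in 3 of 9. Krt8 was at 11.5 to 704 CPM in carcinosarcomas (median 393) and Krt18 at 25.01 to 1276 CPM (median 692), and for both genes 3 of the 9 carcinosarcomas were below all adenocarcinomas (Krt8 -1.20, SE 0.78, edgeR quasi-likelihood adjusted p = 0.386). Those 3 were tumours 17, 4 and 6. Krt7 was at 9.56 to 534 CPM (median 245), and 8 of the 9 were above the adenocarcinoma median of 56.6 CPM (-0.31, SE 1.01, edgeR quasi-likelihood adjusted p = 0.883). Krt19 was at 10.9 to 453 CPM (median 92.7), with tumour 54.1 above and 5 tumours below all adenocarcinomas. The signs of Krt7, Krt8, Krt18 and Krt19 all turned without adenocarcinoma 52.

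Krt5 in the carcinosarcomas depended on a single tumour. Tumour 6 had 562 CPM, above every L1363P adenocarcinoma, and the other 8 had 0.555 to 6.03 CPM (median 1.41). With tumour 6 the difference from adenocarcinomas was -2.04 (SE 1.67, edgeR quasi-likelihood adjusted p = 0.500). Without it Krt5 was called lower at -6.87, and 5 members were called in all. Tumour 6 also had the lowest Krt7 (9.56 CPM) and Krt8 (11.5 CPM) of the group, and its sum of 5 skeletal muscle markers was 1395 CPM.

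Sarcomatoid tumours against carcinosarcomas gave 6 members lower and none higher, against 13.9% lower and 7.43% higher among 16147 genes (median -2.60 over the 10, -0.04 over all). Here the simple pair was called: Krt8 fell (-2.73, SE 0.63, edgeR quasi-likelihood adjusted p = 0.00400) and Krt18 fell (-2.62, SE 0.61, edgeR quasi-likelihood adjusted p = 0.00475). For Krt8, 7 of the 9 carcinosarcomas were above all sarcomatoid tumours. Krt17 (-4.44, edgeR quasi-likelihood adjusted p = 0.00423) and Krt14 (-2.40, edgeR quasi-likelihood adjusted p = 0.0255) fell further below their carcinosarcoma levels, as did Krt6b (-3.50, edgeR quasi-likelihood adjusted p = 0.0496). Krt5 was also called (-4.23, edgeR quasi-likelihood adjusted p = 0.0435). Without carcinosarcoma 6 the calls of Krt5 and Krt6b were lost, 4 members were called, and the fold change of Krt5 was 0.60. Krt6b also lost its call with RLE factors, with no filter on low counts and with limma. In a fit of only these groups it did not pass the filter on low counts and was not tested. Krt7 was 196 CPM at the median of sarcomatoid tumours and 245 CPM at that of carcinosarcomas (-0.82, SE 0.73, edgeR quasi-likelihood adjusted p = 0.433). Limma called 3 members (Krt8, Krt17 and Krt18) and DESeq2 7. Without carcinosarcomas 17 and 4 and KP adenocarcinoma 90.01A, 8 were called, Krt7 and Krt15 being the exceptions.

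Within the 9 L1363P carcinosarcomas no keratin was called for a slope on the labelled epithelial percentage. Of the 10 members 9 could be tested and 0 were called by edgeR, against 2.46% higher and 5.63% lower among 14645 genes, with 3 at an unadjusted p under 0.05. Krt15 had a slope of 0.53 log2 units per 10 percentage points (SE 0.16, edgeR quasi-likelihood adjusted p = 0.0748), Krt5 0.93 (SE 0.32, edgeR quasi-likelihood adjusted p = 0.106) and Krt17 0.46 (SE 0.18, edgeR quasi-likelihood adjusted p = 0.136). Krt8 had 0.27 (SE 0.16) and Krt18 0.22 (SE 0.15), and Krt7 had -0.02 (SE 0.11, edgeR quasi-likelihood adjusted p = 0.916). DESeq2 called 5 members (Krt5, Krt6a, Krt15, Krt17 and Krt19), limma 2 (Krt15 and Krt17), and edgeR without tumour 6 called Krt19 alone. These settings also called more genes of all kinds. DESeq2 called 1533 higher and 1444 lower of 14645 genes, and limma 778 higher and 929 lower of 14465. For edgeR without tumour 6 it was 869 higher and 1346 lower of 14395. Without the 2 tumours under 10% epithelial no gene at all was called. Carcinosarcoma 17 illustrates the flat Krt7 slope, with 519 CPM at 5% epithelial, against 172 to 534 CPM in the 6 tumours other than 17, 4 and 6.

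**Figure D3:**
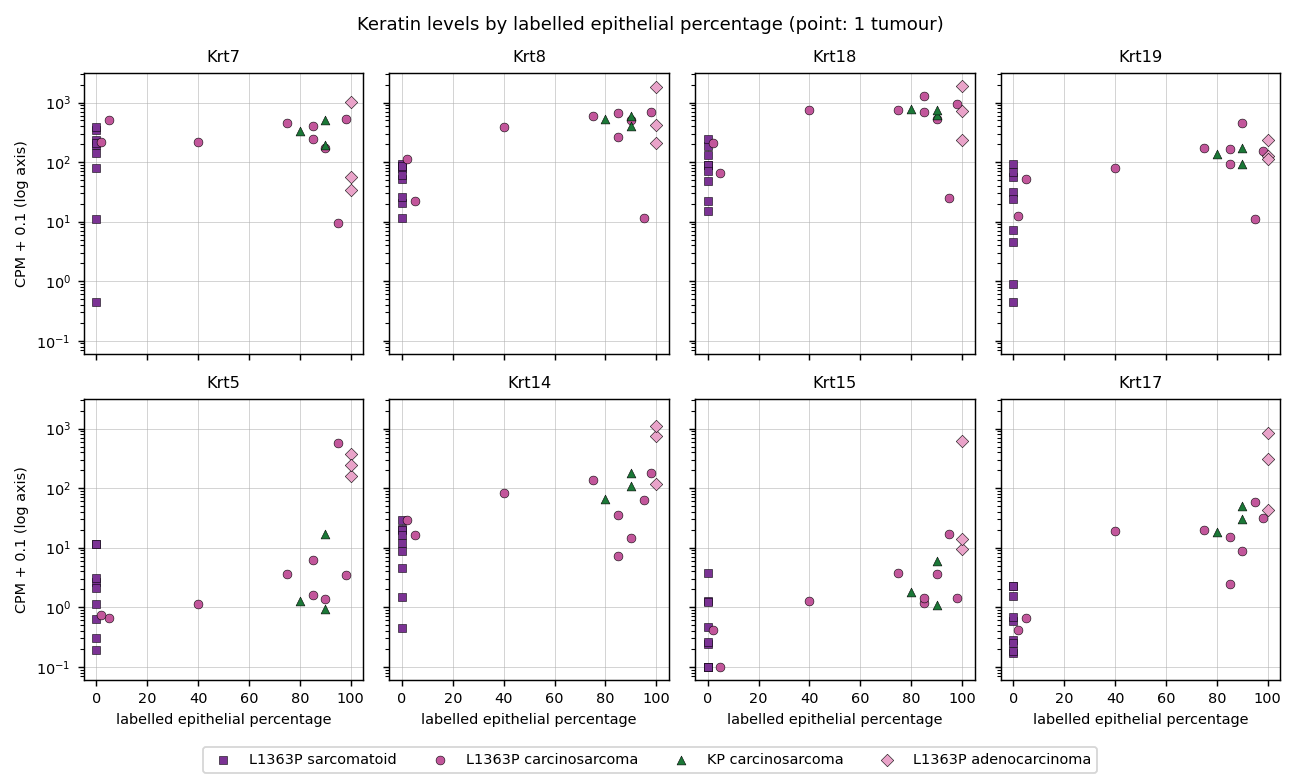
Level of 8 keratins (CPM + 0.1, log axis) against the labelled epithelial percentage in L1363P sarcomatoid tumours, L1363P carcinosarcomas, KP carcinosarcomas and L1363P adenocarcinomas. Carcinosarcomas at 75 to 98% epithelial hold Krt8 and Krt18 at adenocarcinoma levels but Krt5 at 16.8 CPM or less, except L1363P tumour 6 with 562 CPM of Krt5 and 11.5 CPM of Krt8.

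No keratin was called between the histologies of KP tumours, where the widest spread lay among the adenocarcinomas. Krt5 was at 0.848, 1.18 and 16.8 CPM in KP carcinosarcomas, against 0.477, 3.71, 618, 808 and 3594 CPM in KP adenocarcinomas. The lower 2 adenocarcinomas, 90.01A and 39, overlapped the carcinosarcomas (-7.37, SE 2.90, edgeR quasi-likelihood adjusted p = 0.359). Krt15 was at 0.998, 1.73 and 5.79 CPM in KP carcinosarcomas, against 0, 0.727, 65.5, 78.2 and 87.1 CPM in KP adenocarcinomas, the same 2 adenocarcinomas again being low. Krt17 was at 18.3, 30.7 and 49.2 CPM in KP carcinosarcomas, against 0.159, 13.2, 150, 318 and 382 CPM in KP adenocarcinomas. Of the 10 members edgeR called 0, against 0% higher and 0% lower among all genes. At an unadjusted p under 0.05 there were 2 members, DESeq2 called 1 (Krt5) and limma 0. Over all genes DESeq2 called 40 higher and 143 lower of 15953. Without adenocarcinoma 90.01A edgeR again called 0 members. Krt8 was at 411, 532 and 589 CPM in KP carcinosarcomas, against 109, 278, 300, 340 and 760 CPM in KP adenocarcinomas, and its groups overlapped.

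KP adenocarcinoma 90.01A had 3 of the 4 simple keratins and hardly any basal ones. It had 474 CPM of Krt7, 109 of Krt8 and 131 of Krt18, while the simple keratin Krt19 and the basal Krt14 were both at 3.34 CPM, Krt17 at 0.159 CPM and Krt15 and both Krt6 genes at 0. The other 4 KP adenocarcinomas had 170 to 705 CPM of Krt14. Its sum of 6 macrophage markers, 8080 CPM, was the highest of the 73 tumours, and Vim, a mesenchymal filament gene, was at 2338 CPM, against 345 to 1111 CPM in the other 4.

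Between genotypes of the same histology the L1363P and KP tumours showed no called keratin. For adenocarcinomas edgeR called none of the 10 (0.142% higher and 0.0681% lower over all genes), with 1 at an unadjusted p under 0.05. That one was Krt6b, at 0.185, 2.77 and 146 CPM in L1363P adenocarcinomas, against 0 to 0.654 CPM in the 5 KP adenocarcinomas (7.20, SE 1.68, edgeR quasi-likelihood adjusted p = 0.0667). DESeq2 called it and limma called 0 members, and edgeR called it without L1363P adenocarcinoma 7.2, without 52 or without KP adenocarcinoma 131.03A. The lowest L1363P value lay within the KP range, and without adenocarcinoma 26.2 the fold change was 2.13 and not called. Without KP adenocarcinoma 90.01A edgeR called 0 of the 10. For carcinosarcomas edgeR, DESeq2 and limma called 0 of 10, with 0 at an unadjusted p under 0.05 (0% higher and 0% lower over all genes). The largest difference there was Krt5 at 3.35 (SE 2.29, edgeR quasi-likelihood adjusted p = 0.938), again through tumour 6.

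The difference of the carcinosarcoma effect between L1363P and KP was tested as an interaction, which called 2 of 16147 genes and no keratin. Krt6b came nearest at -8.20 (SE 2.01, edgeR quasi-likelihood adjusted p = 0.130), and Krt5 had 5.33 (SE 3.14, edgeR quasi-likelihood adjusted p = 0.427). Apart from these, the interaction values of the members lay between -3.47 (Krt6a) and 1.18 (Krt19). Without carcinosarcomas 17 and 4 and KP adenocarcinoma 90.01A no keratin was called either. Krt6b then had -7.52 (SE 1.98, edgeR quasi-likelihood adjusted p = 0.261) and Krt5 6.01 (SE 2.88, edgeR quasi-likelihood adjusted p = 0.473).

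The balance of simple and basal keratins was taken in each tumour as the mean log2 CPM of Krt7, Krt8, Krt18 and Krt19 minus that of Krt5, Krt14, Krt15 and Krt17. It is an index without gene length, and no test was made of it. It was 3.66 to 7.02 in L1363P sarcomatoid tumours (median 4.51), -2.54 to 7.37 in L1363P carcinosarcomas (median 5.25) and -2.22, 1.85 and 2.38 in L1363P adenocarcinomas. It was 4.44, 4.46 and 5.66 in KP carcinosarcomas, against -1.60, -1.55, 1.76, 4.65 and 7.00 in KP adenocarcinomas. So 20 of the 21 carcinosarcomas and sarcomatoid tumours lay on the simple side and tumour 6 alone on the basal side. Of the 8 L1363P and KP adenocarcinomas 3 had a balance below 0. With Krt6a and Krt6b on the basal side, 1 of 3 L1363P and 0 of 5 KP adenocarcinomas were below 0.

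L1363P sarcomatoid tumours and carcinosarcomas had overlapping balances but different median amounts of keratin. The mean log2 CPM of the 4 simple keratins had a median of 5.85 in sarcomatoid tumours and 8.16 in carcinosarcomas, against 7.57 in L1363P adenocarcinomas. For the 4 basal keratins the median was 0.49 in sarcomatoid tumours and 2.81 in carcinosarcomas, against 7.53 in adenocarcinomas. The summed level of all 10 was 32.7 to 374 CPM per kb in sarcomatoid tumours and 227 to 1397 CPM per kb in carcinosarcomas, against 988, 2034 and 3649 CPM per kb in L1363P adenocarcinomas.

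**Figure D4:**
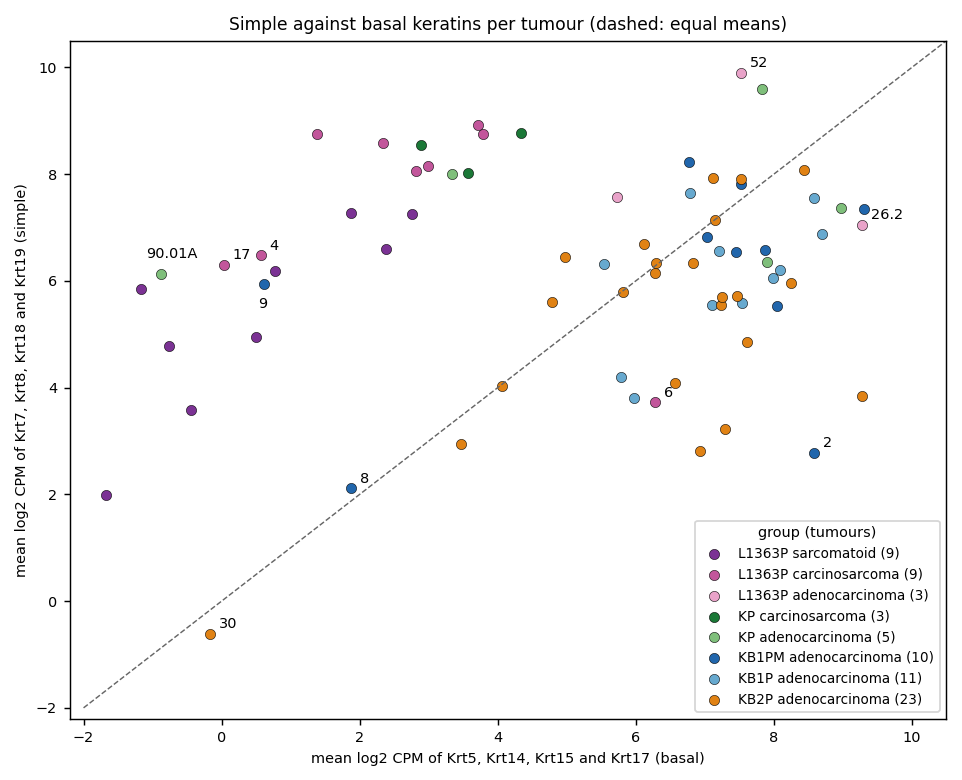
Mean log2 CPM of the 4 simple keratins (vertical) against that of the 4 basal keratins (horizontal) in each of the 73 tumours, with a dashed line where they are equal. Carcinosarcomas other than L1363P tumours 6, 17 and 4 lie high at the left, and sarcomatoid tumours lower at the left. Carcinosarcomas 17 and 4 lie among the sarcomatoid tumours, and carcinosarcoma 6 lies right of the line. Most KB1P, KB1PM and KB2P adenocarcinomas lie at or right of the line.

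In the 44 KB1P, KB1PM and KB2P adenocarcinomas the balance was below 0 in 32. It was -5.80 to 5.32 in the 10 KB1PM tumours (median -0.56), -2.18 to 0.87 in the 11 KB1P tumours (median -1.60) and -5.44 to 1.48 in the 23 KB2P tumours (median -0.44). Tumours below 0 numbered 6 in KB1PM, 9 in KB1P and 17 in KB2P. With Krt6a and Krt6b on the basal side they numbered 2, 4 and 5, so these counts depend on the genes chosen. The KB1PM group held both extremes of the 44. Tumour 9 (5.32) had 985 CPM of Krt18, 426 of Krt8 and 244 of Krt7 but no count of Krt19, with 11.9 CPM of Krt17, 2.18 of Krt14, 0.835 of Krt5 and 0.0642 of Krt15, and with Epcam at 1416 CPM. Tumour 2 (-5.80) had 1.94 CPM of Krt8 and 50.1 of Krt18, with 576 of Krt5, 461 of Krt14 and 744 of Krt17.

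Tests between these models called no keratin. For all KB1P-genotype tumours against KB2P tumours edgeR, DESeq2 and limma called 0 of 10 (edgeR called 5.33% of 18492 genes higher and 7.79% lower), with 2 at an unadjusted p under 0.05. These were Krt7 at 1.07 (SE 0.52, edgeR quasi-likelihood adjusted p = 0.165) and Krt15 at 1.22 (SE 0.60, edgeR quasi-likelihood adjusted p = 0.171). Krt7 was at 3.88 to 288 CPM in KB1PM tumours (median 58.2) and 9.67 to 173 CPM in KB1P tumours (median 27.6), against 0.172 to 145 CPM in KB2P tumours (median 13.5), and the ranges overlapped widely. For KB1PM against KB1P tumours edgeR, DESeq2 and limma called 0 of 10 (0.465% of genes higher, 0.411% lower), with 0 at an unadjusted p under 0.05. The values lay between -1.28 (Krt6b, SE 1.24) and 1.40 (Krt7, SE 0.75). Without KB2P tumour 30 and KB1PM tumour 8 edgeR called 0 of 10 in both comparisons. KB1PM, KB1P and KB2P libraries share no number in their library names, so group and library number cannot be told apart in these comparisons.

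For L1363P against KB1P-genotype adenocarcinomas edgeR, DESeq2 and limma called 0 of 10 (2.65% of genes higher, 2.31% lower), with 3 at an unadjusted p under 0.05. Krt7 had 2.38 (SE 0.87, edgeR quasi-likelihood adjusted p = 0.105), Krt8 1.92 (SE 0.85, edgeR quasi-likelihood adjusted p = 0.212) and Krt6b 2.78 (SE 1.39, edgeR quasi-likelihood adjusted p = 0.285). Krt7 turned to -0.66 without adenocarcinoma 52 and Krt6b to -2.30 without 26.2. All L1363P and KP libraries carry another number in their library names (5625) than the KB1P-genotype and KB2P libraries, so genotype and library number cannot be told apart across them. Within KB2P, the libraries numbered 2749 against those numbered 2459 gave 0 of 10 members called by edgeR, DESeq2 and limma (0.379% of genes higher, 0.583% lower), with 1 at an unadjusted p under 0.05, Krt18 at -1.40 (SE 0.57).

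Single members spanned wide ranges within each model. Krt5 was at 0.638 to 853 CPM in KB1PM tumours (median 379) and 7.82 to 2410 CPM in KB1P tumours (median 290), against 2.20 to 1072 CPM in KB2P tumours (median 289). In 9 of the 44 tumours Krt5 was under 20 CPM, and 7 of those 9 had Krt18 above 200 CPM. The Krt18 median was itself above 200 CPM in each group (531 CPM in KB1PM, 307 in KB1P and 218 in KB2P tumours). High Krt18 was thus not particular to tumours with low Krt5. Krt14 was at 2.18 to 1328 CPM in KB1PM tumours (median 398) and 25.5 to 845 CPM in KB1P tumours (median 363), against 0.430 to 3045 CPM in KB2P tumours (median 266). KB2P tumour 10 had the highest Krt14 and KB2P tumour 30 the lowest. Tumour 30 had at most 3.78 CPM of any of the 10, and its 10 epithelial markers summed to 53.3 CPM. Krt6b exceeded 3 CPM in 10 of the 73 tumours, led by 146 CPM in L1363P adenocarcinoma 26.2 and 128 CPM in KB2P tumour 10.

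**Figure D5:**
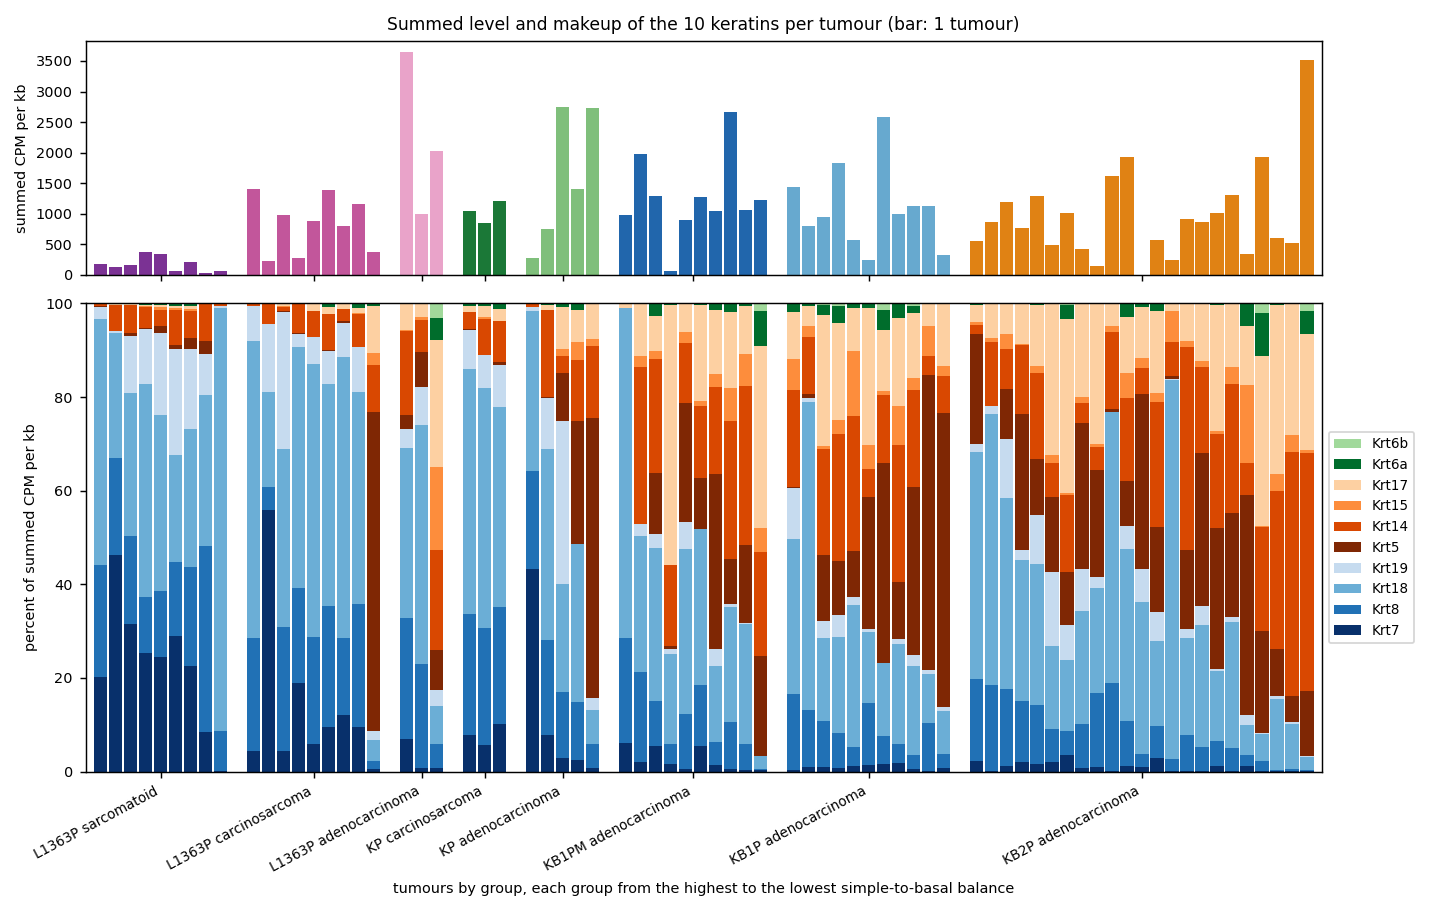
Summed level of the 10 keratins (CPM per kb, top) and the percentage each contributes to that sum (bottom) in every tumour, by group. Krt18 or Krt7 is the largest contributor in 8 of 9 sarcomatoid tumours and 8 of 9 L1363P carcinosarcomas, and Krt5, Krt14, Krt17 and Krt18 share it in different proportions in KB1PM, KB1P and KB2P tumours.

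By length-adjusted level, the leading keratin of a tumour differed by group. In CPM per kb Krt18 was the highest of the 10 in 5 of 9 sarcomatoid tumours, Krt7 in 3 and Krt8 in 1. Krt18 led in 7 of 9 L1363P carcinosarcomas and in all 3 KP carcinosarcomas. In KB1PM tumours Krt18 led in 4, Krt14 in 3, Krt17 in 2 and Krt5 in 1, and in KB1P tumours Krt5 in 4, Krt18 in 3, Krt14 in 2 and Krt17 in 2. In KB2P tumours Krt18 led in 8 and Krt5, Krt14 and Krt17 in 5 each. The simple keratins made up a median of 93.9% of the 8 balance keratins per kb in sarcomatoid tumours and 93.6% in L1363P carcinosarcomas, against 73.2% in L1363P adenocarcinomas. This share was 44.2% in KB1PM, 30.8% in KB1P and 41.5% in KB2P tumours.

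Krt18 exceeded Krt8 in CPM per kb in 72 of 73 tumours, the exception being sarcomatoid tumour 9.1, and the median ratio of Krt8 to Krt18 was between 0.316 (KB1PM) and 0.643 (L1363P adenocarcinomas) in all 8 groups. Within groups that ratio spread from 0.0948 to 1.23 in sarcomatoid tumours and from 0.0230 to 0.707 in KB2P tumours. The group medians of the ratio of Krt5 to Krt14 per kb lay further apart. This median was 0.0263 in L1363P carcinosarcomas, against 0.391 in L1363P adenocarcinomas, and 0.0138 in KP carcinosarcomas, against 1.99 in KP adenocarcinomas. It was 0.515 in KB1PM, 0.619 in KB1P and 0.812 in KB2P tumours, with single KB2P tumours at 0.00857 and 11.9.

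Within groups, Krt8 followed Krt18 across tumours. Of 30 relations computed (6 pairs of genes in 5 groups, on log2 CPM), Pearson's r passed a BH-adjusted p of 0.05 in 4 of 5 groups for Krt8 with Krt18, for Krt14 with Krt17 and for Krt6a with Krt6b, and in 1 of 5 for Krt5 with Krt14. Spearman's rho passed it in 3 of 5 groups for each of those first 3 pairs and in 1 of 5 for Krt5 with Krt14. Krt8 and Krt18 had Pearson's r = 0.85 and Spearman's rho = 0.89 in the 23 KB2P tumours (permutation p = 1e-05 for each, the smallest that the permutations can give, BH-adjusted 0.0001 and 0.00015). Without tumours 30 and 24 r was 0.78. In KB1PM tumours r was 0.95 (rho 0.93, permutation p = 0.00112 and 0.00032, BH-adjusted 0.00422 and 0.0024, r 0.91 without tumours 2 and 8). In L1363P carcinosarcomas r was 0.98 (rho 0.93, exact permutation p = 0.000303 and 0.00075, BH-adjusted 0.00182 and 0.00375, r 0.88 without tumours 6 and 17). In sarcomatoid tumours r was 0.61 (rho 0.62, exact permutation p = 0.0793 and 0.0857, BH-adjusted 0.125 and 0.143, r 0.95 without tumours 10 and 43).

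Krt14 and Krt17, both type I, also moved together, with r = 0.86 in KB2P tumours (rho 0.76, permutation p = 1e-05 and 5e-05, BH-adjusted 0.0001 and 0.0005, r 0.75 without tumours 30 and 21). In sarcomatoid tumours their r was 0.78 (rho 0.88, exact permutation p = 0.0112 and 0.00308, BH-adjusted 0.028 and 0.0132, r 0.81 without tumours 10 and 37). The basal partners Krt5 and Krt14 had r = 0.52 in KB2P tumours (rho 0.52, permutation p = 0.0125 and 0.0123, BH-adjusted 0.029 and 0.0368, r 0.63 without tumours 18 and 3) and r = 0.00 in KB1P tumours (rho 0.19, permutation p = 0.99 and 0.574, BH-adjusted 0.99 and 0.663, r 0.23 without tumours 5 and 3). In KB1PM tumours their r of 0.72 (rho 0.32, permutation p = 0.0307 and 0.367, BH-adjusted 0.0657 and 0.501) was -0.49 without tumours 8 and 9, so it rested on those. Across the simple and basal sets, none of the 5 relations of Krt8 with Krt14 and none of the 5 of Krt18 with Krt5 passed the adjustment.

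Over all 73 tumours, as a description across libraries that differ in histology and library number, Spearman's rho was 0.91 for Krt8 and Krt18 and -0.28 for Krt5 and Krt7. By the same measure, and leaving out the 10 keratins themselves, the genes most like Krt18 were Bik, an apoptosis gene (0.87), Cldn7, a tight junction gene (0.82), and Epb41l5 (0.82). Most like Krt5 were Col17a1, a hemidesmosome collagen (0.85), the keratin Krt71 (0.83) and the desmosome cadherin Dsc3 (0.79). Krt6a was most like Dmkn (0.84), Mab21l4 (0.84) and the inducible keratin Krt16 (0.80), while its rho with Krt6b was 0.83. For Krt7 the nearest genes were less alike, with Dhx32 at 0.71 and Dtx3l at 0.70 over the 73 tumours and 0.18 and 0.34 over the 23 KB2P tumours. The genes named for Krt5 were also less alike within KB2P, with Col17a1 at 0.68, Krt71 at 0.47 and Dsc3 at 0.55. Those named for Krt18 and Krt6a stayed between 0.79 and 0.90 there. For Krt19 the nearest gene, Trim6, was at 0.65 over the 73 tumours.

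Genes that work with keratins changed in the same L1363P comparisons. Of 22 other keratins 12 were tested in sarcomatoid tumours against adenocarcinomas, and 9 fell and none rose, where 18.4% of all genes were called lower and 12.1% higher (median log2 fold change -6.15 over the 12), among them Krt79 (-10.82) and Krt75 (-9.48). Of 17 genes for the attachment and regulation of keratin filaments 12 fell and 2 rose (median -2.79), and the share that rose is near that over all genes. Those that fell include the desmosome plakophilin Pkp1 (-6.44), desmoplakin Dsp (-5.73), which anchors keratins to desmosomes, Col17a1 (-6.02), and Trp63 (-4.79), the transcription factor of basal epithelium. The 2 that rose encode the cytolinkers Dst (1.93), which ties keratins to hemidesmosomes in its epithelial isoform, and Plec (1.16). In carcinosarcomas against adenocarcinomas 4 of the 12 other keratins fell, and of the attachment genes Col17a1 and Pnn fell while Dst rose (2.14% of all genes lower, 0.539% higher). In sarcomatoid tumours against carcinosarcomas 4 other keratins and 9 attachment genes fell and Plec rose (13.9% of all genes lower, 7.43% higher).

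In the other comparisons few of these genes were called. None was called in KP carcinosarcomas against KP adenocarcinomas, in L1363P against KP adenocarcinomas or in L1363P against KP carcinosarcomas. KB1P-genotype tumours had more Krt71, Krt80 and Dst and less Tchp, a keratin-binding protein gene, than KB2P tumours, groups that share no library number. There 18 other keratins and 17 attachment genes were tested, and 5.33% of all genes were called higher and 7.79% lower. KB1PM tumours had more Krt27 than KB1P tumours (1 of 18 other keratins, against 0.465% of all genes higher). L1363P adenocarcinomas had less Plec than KB1P-genotype tumours (1 of 17 attachment genes, against 2.31% of all genes lower). With the epithelial percentage of L1363P carcinosarcomas Krt23 and Itga6, a hemidesmosome integrin, rose and Plec fell. Here 5 other keratins and 17 attachment genes were tested, and 2.46% of all genes were called higher and 5.63% lower. With so few calls, these are values of single genes and not a result about the lists.

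High Krt6a and Krt6b came with high skin markers in some tumours and not in others. The sum of 8 skin and squamous markers was 868 CPM in KB1PM tumour 2, the highest of all 73, where Krt6a was at 207 CPM and Krt6b at 43.8 CPM. It was 255 CPM in L1363P adenocarcinoma 26.2, with Krt6a at 209.5 CPM and Krt6b at 146 CPM. In KB2P tumour 12, which had the highest Krt6a of all (411 CPM) and 84.4 CPM of Krt6b, the sum was 46.7 CPM. In the L1363P sarcomatoid tumours against adenocarcinomas all 5 tested skin markers fell, and 2 of them, Krt1 and Krt10, also belong to the list of other keratins. The part of skin in these keratin values was not tested.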

How the data were processed

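Per the labels' protocols, strand-marking poly(A) libraries of 73 mouse mammary tumours were sequenced. The authors deposited read counts per gene for 39438 symbols and a table of log2 normalized counts for 37148 symbols. Tools named in the submitters' processing notes are STAR 2.7.3a, featureCounts 2.0.0, DESeq and cutadapt 2.10, with the mm10 build. The strand setting of the counting is not stated. Of 730 keratin values on the log2 scale, 549 equalled the count times a library factor, plus 1, within 0.05 count. The count table holds 24 symbols turned into dates, none of them a keratin.

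Counts were tested with edgeR 4.0.16 (R 4.3.3): filterByExpr with a minimum count of 10, TMM scaling, quasi-likelihood F test, Benjamini-Hochberg (BH) adjustment over all genes tested, threshold 0.05. The 29 L1363P and KP libraries shared 1 fit of 5 groups. Comparisons with KB1P-genotype or KB2P tumours used 1 fit of all 73 libraries in 8 groups, in which KB1P- and KB1PM-titled tumours were averaged with equal weight. DESeq2 1.42.0 on the counts and limma 3.58.1 on the deposited log2 values were alternatives. Log2 CPM used a prior count of 2, and lengths are the longest coding GENCODE vM21 transcript. Correlations used permutation tests (scipy 1.17.1), two-sided. The fits were tested on simulated data.

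The members, gene lists and tests were chosen with earlier results of these data known. Named genes are the 10 keratins, called members of the lists and the genes most alike by Spearman's rho. Replicate numbers of KB1P and KB2P tumours were checked for pairing (5 shared numbers, r -0.13 to 0.42, 4 over 0.1). Those of KB1PM and KB1P tumours were checked too (8 shared, r -0.16 to 0.20, 1 over 0.1). These values are mixed and do not settle whether the numbers pair tumours, and the main fits treated tumours as unpaired.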

Additional observations from a re-analysis of the deposited data

Results flagged for a closer look

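In groups of 4 to 10 tumours, the highest or lowest value was compared with its nearest neighbour by Dixon's test at the 95% level, which chance alone passes in about 1 in 20 groups. Of 44 sets of values tested, 6 passed. L1363P carcinosarcoma 6 accounted for 3 of them: Krt5 at 562 CPM, against 0.555 to 6.03 CPM in the other 8 carcinosarcomas, Krt7 at 9.56 CPM, against 172 to 534 CPM, and a simple-minus-basal balance of -2.54, against 4.97 to 7.37. That tumour is labelled 95% epithelial, and its Epcam was at 101 CPM, against 518 to 1226 CPM in the 6 carcinosarcomas other than 17, 4 and 6.

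KP adenocarcinoma 90.01A had 3.34 CPM of Krt14, against 170 to 705 CPM in the other 4 KP adenocarcinomas. KB1PM tumour 2 had 43.8 CPM of Krt6b, while the median of the 10 KB1PM tumours was 0.123 CPM. Sarcomatoid tumour 40.1 had 0.3999 CPM of Krt6b, which is 5 counts, and the other 8 sarcomatoid tumours had none.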

How the results depend on the processing

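Fold changes under alternatives were counted for all members of comparisons with a called member, and elsewhere for members at an unadjusted p under 0.05. Of these, 351 kept their sign and their status as called or not called, 14 were newly called, 24 lost the call and 11 changed sign. New calls of other members, such as Krt6a and Krt19 for the epithelial percentage with DESeq2, are outside this count. In sarcomatoid tumours against adenocarcinomas 6 to 8 members were called when single tumours were left out, and the Krt7 fold change was -1.70 to 1.92. In carcinosarcomas against adenocarcinomas 0 were called with limma, 0 in a fit of only these groups and 0 to 4 with 1 adenocarcinoma left out and 5 without carcinosarcoma 6. There the fold change ranged from -4.26 to 0.63 for Krt6a, -0.87 to 2.74 for Krt7, -1.67 to 0.21 for Krt8, -1.19 to 0.29 for Krt18 and -0.94 to 0.17 for Krt19 (-0.44 to 0.17 with 1 adenocarcinoma left out). Krt7 was 0.77 with limma, and Krt19 was 0.040 without tumours 17, 4 and 90.01A. In sarcomatoid tumours against carcinosarcomas limma called 3, 4 were called without carcinosarcoma 6, and Krt5 was 0.60 without it. DESeq2 called 1 member in KP carcinosarcomas against adenocarcinomas and 1 in L1363P against KP adenocarcinomas, where leaving out single tumours gave 0 to 1. Against KB1P-genotype tumours, L1363P values were -2.30 to 3.37 for Krt6b and -0.66 to 2.92 for Krt7 with 1 tumour left out. For the epithelial percentage DESeq2 called 5, limma 2 and edgeR without carcinosarcoma 6 called 1. The median balance of sarcomatoid tumours was 3.27 from Krt8 and Krt18 against Krt5 and Krt14, and 5.65 with Krt6a and Krt6b on the basal side. In KP carcinosarcomas it was 5.6 from the 2 pairs and 3.08 from summed CPM per kb, and in KB1P tumours 0.048 with Krt6a and Krt6b. The cause of these shifts was not tested.

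Counts over all genes moved more. Sarcomatoid tumours against adenocarcinomas gave 4932 calls and 2456 without adenocarcinoma 26.2. Carcinosarcomas against adenocarcinomas gave 433, DESeq2 1113, limma 167, only these groups 6, without 26.2 91, without 52 733 and without carcinosarcoma 6 1107. Sarcomatoid tumours against carcinosarcomas gave 3450, and 5957 without tumours 17, 4 and 90.01A. L1363P against KP adenocarcinomas gave 34, with 0 to 418 under alternatives. KP carcinosarcomas against adenocarcinomas gave 0 and DESeq2 183, and L1363P against KP carcinosarcomas 0 and DESeq2 6. L1363P against KB1P-genotype tumours gave 917, with as few as 501 when single L1363P tumours were left out. The slope gave 1185, DESeq2 2977, without tumours under 10% 0, without tumour 54.2 710 and without tumour 6 2215. The KB2P library numbers gave 165, DESeq2 947, limma 78, unfiltered 82 and without tumour 30 63. KB1P-genotype against KB2P tumours gave 2426, only these groups 1508 and KB1P titles alone 961. KB1PM against KB1P tumours gave 162, unfiltered 314, limma 4 and only these groups 2. RLE scaling in place of TMM left the split of higher and lower calls nearly as it was (2005 and 2906, against 1954 and 2978, in sarcomatoid tumours against adenocarcinomas), whereas limma gave 2444 and 2161.

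With the replicate block 16 genes were called for KB1P-genotype against KB2P tumours and 1 for KB1PM against KB1P tumours, and 0 of the 10 keratins in each. The check of shared numbers did not settle whether they pair tumours. The fits without carcinosarcoma 6, without KB2P 30 and KB1PM 8, and the interaction were chosen after seeing the data. Krt6b, Krt15, Krt17 and Krt6a lie near the limit of detection in sarcomatoid tumours, with 5, 86, 93 and 113 counts in all over the 9 tumours. The size of their fold changes is therefore set by few counts.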
